A study of Arabidopsis thaliana with 4 samples.

Results

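The 10 loci described here are Arabidopsis thaliana genes known for heritable silencing or for a silenced duplicate, and 1 pseudogene, among 36251 gene models in the deposited table. They are the phosphoribosylanthranilate isomerase genes PAI1 (AT1G07780), PAI2 (AT5G05590) and PAI3 (AT1G29410), and the histidinol-phosphate aminotransferase genes HISN6A (AT5G10330) and HISN6B (AT1G71920). The others are the folate transporter gene FOLT1 (AT5G66380), the silenced genes FWA (AT4G25530) and SDC (AT2G17690), SUPERMAN (SUP, AT3G23130), which has known silenced epialleles, and the pseudogene AT5G35935. They were chosen by identifier, with their values in these libraries already known, so their levels are given as a description and without a test. Each of the 10 identifiers matched a single annotated model. DNA methylation was not measured, and the word epiallele below refers to what is known of these genes and not to their state in these plants.

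An epiallele is a form of a gene that differs in heritable chromatin marks, usually cytosine methylation, and not in sequence. In plants, small RNAs made from repeated or inverted copies can direct DNA methylation to every homologous copy, and methylation over a promoter silences transcription. In the accession Wassilewskija an inverted repeat of PAI genes directs methylation to the other PAI copies, whereas Columbia (Col-0) carries PAI1, PAI2 and PAI3 as single, separate genes. In Columbia HISN6B is the silenced partner of HISN6A, and in some other accessions FOLT1 is silenced by a rearranged copy. FWA and SDC are kept silent in vegetative tissue by methylated tandem repeats at their start, and the clark kent epialleles of SUP are methylated forms of a gene normally active in flowers.

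RNA was sequenced from seedlings of the lines Another Col-0 and SALK Col-0, with 2 libraries each, described in the labels as biological replicates. Plants of both lines were wild type, 2 weeks old, and raised in soil at 22 °C with long days. The TruSeq RNA V2 kit used does not mark strand, and reads were single-end, of 101 nt. How the lines differ in origin is not given in the labels. Nothing more is said of separate trays or days, so the spread between replicates may be partly technical. Levels are in FPKM, fragments set relative to transcript length and to all mapped fragments, so that levels of different genes can be compared per length.

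The duplicates are nearly identical in their coding sequence, which bears on how reads of 101 nt can be assigned to them. PAI1 and PAI2 have coding sequences of 828 nt that differ at 5 positions (99.4% identity), written C27A, T30C, A48G, T303C and G390C with the PAI1 base first and positions counted from 1 at the start codon. PAI3 differs from PAI1 at 33 and from PAI2 at 32 of the first 602 coding positions (94.5% and 94.7% identity), and its annotated coding end differs further. The first 60 coding bases of the 3 genes, from the RefSeq annotation of TAIR10.1, hold 3 of the 5 positions that separate PAI1 from PAI2 and show how much more PAI3 differs. They lie on the minus strand across an intron, in chr1:2411492-2411833 for PAI1, chr5:1667874-1668214 for PAI2 and chr1:10299594-10299930 for PAI3, and capitals mark positions that are not alike in all 3.
PAI1: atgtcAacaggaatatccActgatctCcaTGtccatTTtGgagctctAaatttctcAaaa
PAI2: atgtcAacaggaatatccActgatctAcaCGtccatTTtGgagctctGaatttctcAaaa
PAI3: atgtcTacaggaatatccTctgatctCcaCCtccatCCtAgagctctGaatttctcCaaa

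Of 728 windows of 101 nt in the coding sequence of PAI1, 492 (67.6%) occur without a mismatch in that of PAI2, and PAI3 shares 0 of its 635 windows with the other two. Over whole exons, 642 of 1453 windows of PAI1 (44.2%) occur elsewhere in the genome, 352 of them in PAI2 and 290 in AT1G07770, the gene of ribosomal protein S15A that lies next to PAI1. That second stretch is noncoding sequence at the 5′ side of PAI1, in chr1:2412187-2412391 and chr1:2412393-2412687. Of the 205 and 295 nt of these pieces, 33 and 78 nt lie in exons of AT1G07770.

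HISN6A and HISN6B are closer still, with coding sequences of 1254 nt that differ at 2 positions (99.8% identity), G915A and G978A with the HISN6A base first. The stretch of coding positions 901 to 990 holds both and is the part of the coding sequence by which the copies can be told apart. It lies in chr5:3248291-3248380 (minus strand) for HISN6A and in chr1:27068646-27068735 (plus strand) for HISN6B, in TAIR10.1, and capitals mark the differing bases.
HISN6A: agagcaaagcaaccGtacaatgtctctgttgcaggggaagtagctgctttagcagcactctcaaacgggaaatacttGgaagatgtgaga
HISN6B: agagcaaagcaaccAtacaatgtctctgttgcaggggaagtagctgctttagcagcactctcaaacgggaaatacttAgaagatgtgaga

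A read must cover 1 of these bases to be unique within the coding sequence, which is so for 164 of 1154 windows (14.2%) in either gene. Exon windows of this length from FOLT1, FWA, SDC, SUP and the RefSeq span of AT5G35935 were found nowhere else in the genome.

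SDC is shown by the tandem repeats ahead of its start, the sequence known to be methylated when the gene is silent. In the 500 nt before the RefSeq start, 6 copies of a unit of 32 nt were found with up to 6 mismatches and no gaps, from 299 to 77 nt upstream, on the plus strand of TAIR10.1. They run from chr2:7681863-7681894 (copy 1) to chr2:7682054-7682085 (copy 6), and copies 2 to 6 follow each other without a gap from 7681926. The interval between copies 1 and 2 is slightly shorter than the unit. A search without gaps would miss a shortened copy there, so 6 may not be the full number. Capitals mark bases that differ from the commonest base at that place.
SDC copy 1: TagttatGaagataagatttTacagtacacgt
SDC copy 2: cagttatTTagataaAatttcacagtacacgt
SDC copy 3: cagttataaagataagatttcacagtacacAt
SDC copy 4: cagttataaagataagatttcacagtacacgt
SDC copy 5: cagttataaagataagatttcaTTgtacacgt
SDC copy 6: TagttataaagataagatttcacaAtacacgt

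Across the whole table, models averaging 1 FPKM or more were compared between lines with limma on log2(FPKM + 1). None of 20634 models passed an adjusted p of 0.05 in either direction (0% higher and 0% lower), 3439 had an unadjusted p under 0.05, and the smallest adjusted p was 0.199. With annotated models alone, 11 of 18432 passed. Among those annotated models, both Another Col-0 values were above both SALK Col-0 values in 29.3%, and both were below in 23.2%. The median value of annotated models at or above 1 FPKM was 15.5 and 15.6 in Another Col-0 and 15.3 and 15.2 in SALK Col-0. The sum over all models varied more between libraries. It was 1.59e+06 and 1.23e+06 FPKM in Another Col-0 and 1.76e+06 and 1.08e+06 FPKM in SALK Col-0. The seedling label was checked against markers: the 5 green tissue markers summed to 28007 and 27690 FPKM in Another Col-0 and 26178 and 29067 FPKM in SALK Col-0. Of the 4 above 0, RBCS1A was higher in Another Col-0 without overlap and LHCB1.5, RCA and LHCA1 overlapped between lines, with a median difference of -0.06. The 6 root markers summed to 43.7 and 43.6 FPKM in Another Col-0 and 41.4 and 46.5 FPKM in SALK Col-0, but single members differed in opposite directions. TIP2;3, a tonoplast aquaporin gene, had a ratio of 1.64. PER64, an endodermal peroxidase gene, had a ratio of 0.736 and the root hair factor RHD6 one of 0.559. None of these 3 overlapped between lines. CASP1, COBL9 and EXPA7 did overlap, with ratios of 0.93, 0.973 and 1.06. CAB1, a chlorophyll-binding protein gene, was listed at 0 in all 4 libraries. Whether that 0 is a failed estimate was not tested, so a listed 0 is not taken here as absence of the transcript.

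Of the 10 loci, 6 averaged 1 FPKM or more (mean of the 4 libraries; PAI1, PAI2, PAI3, HISN6A, FOLT1 and AT5G35935), and 4 did not (HISN6B, FWA, SDC and SUP). Among the 6, both Another Col-0 values were above both SALK Col-0 values for PAI1, PAI2, PAI3 and AT5G35935, and the lines overlapped for HISN6A and FOLT1. PAI3 overlapped too when libraries were scaled to a common median. The median difference of the 6, in log2(FPKM + 1) of Another Col-0 minus SALK Col-0, was 0.26, and that of all tested annotated models was 0.03. The deposited lower limits of Another Col-0 were above the deposited upper limits of SALK Col-0 for AT5G35935 alone, as they were for 17 of 18432 annotated models (0.0922%). In a library, the distance between the authors' limits of these 6 loci spanned from 44.6% to 98.0% of the value on either side. In bulk RNA of seedlings, fewer cells with a transcript and less transcript per cell cannot be told apart.

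**Figure D1:**
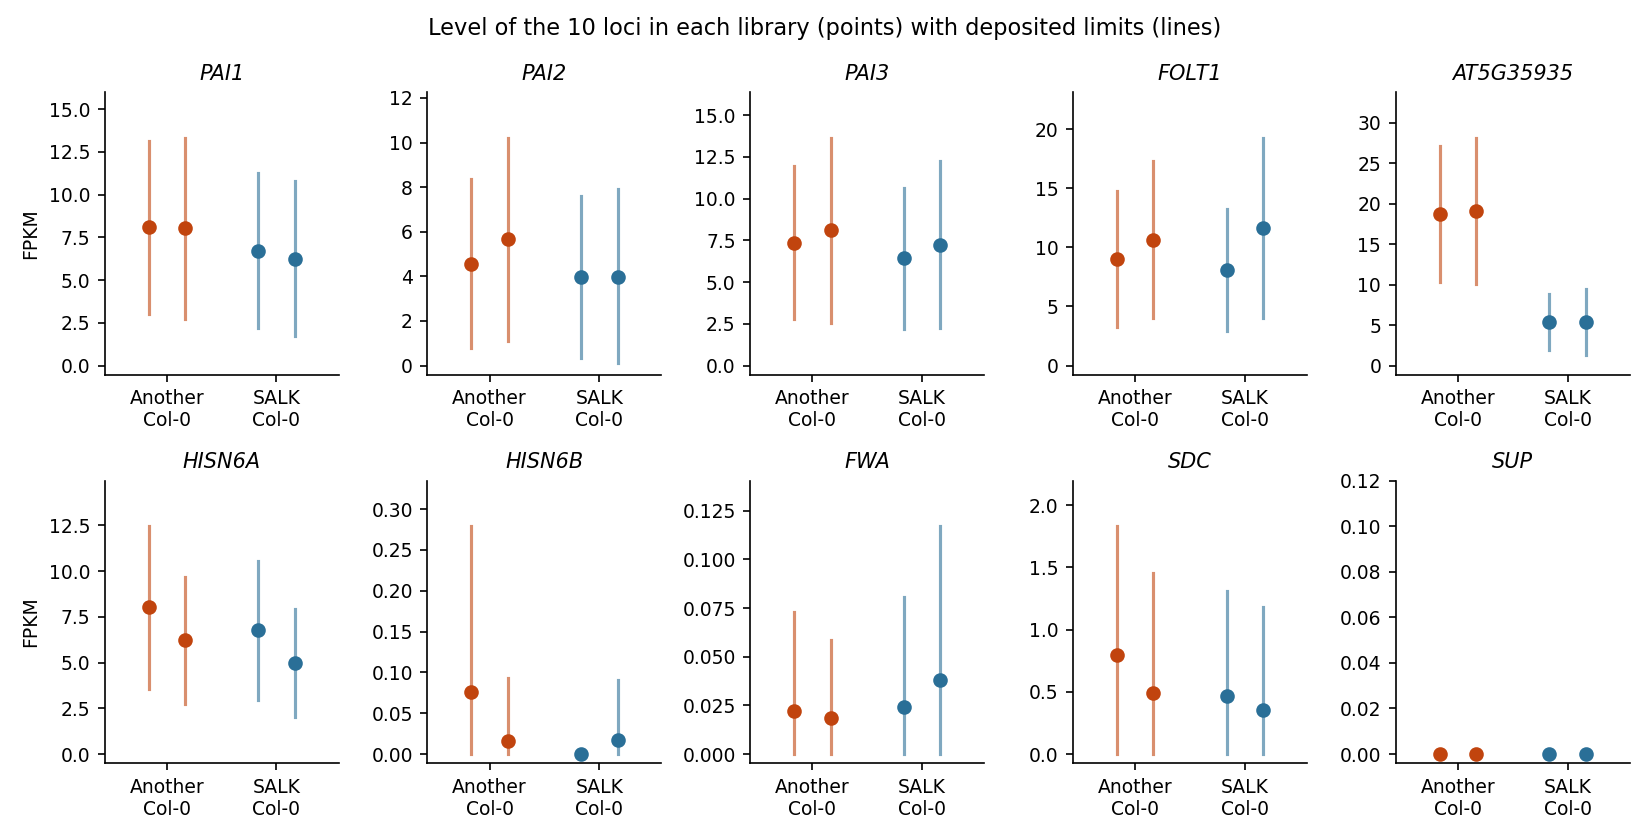
FPKM of each of the 10 loci (1 panel each, with its own linear axis) in the 2 libraries of Another Col-0 (orange, left) and the 2 of SALK Col-0 (blue, right), as points, with the authors' deposited lower and upper limits as lines. AT5G35935 stands near 19 in Another Col-0 and near 5 in SALK Col-0, whereas the limits of every other panel overlap between lines and SUP is listed at 0 throughout.

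In Another Col-0 the order of mean levels was AT5G35935, FOLT1, PAI1, PAI3, HISN6A and PAI2, followed by SDC, HISN6B, FWA and SUP. In SALK Col-0 it was FOLT1, PAI3, PAI1, HISN6A, AT5G35935 and PAI2, followed by SDC, FWA, HISN6B and SUP. The values of PAI3 overlapped those of PAI1 and HISN6A in both lines, and PAI1 and HISN6A overlapped in SALK Col-0. In Another Col-0 the lower PAI1 value, 8.04 FPKM, was just above the higher HISN6A value, 8.02 FPKM. FOLT1 was above all 3 of them and PAI2 was below them in every library of the same line.

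**Figure D2:**
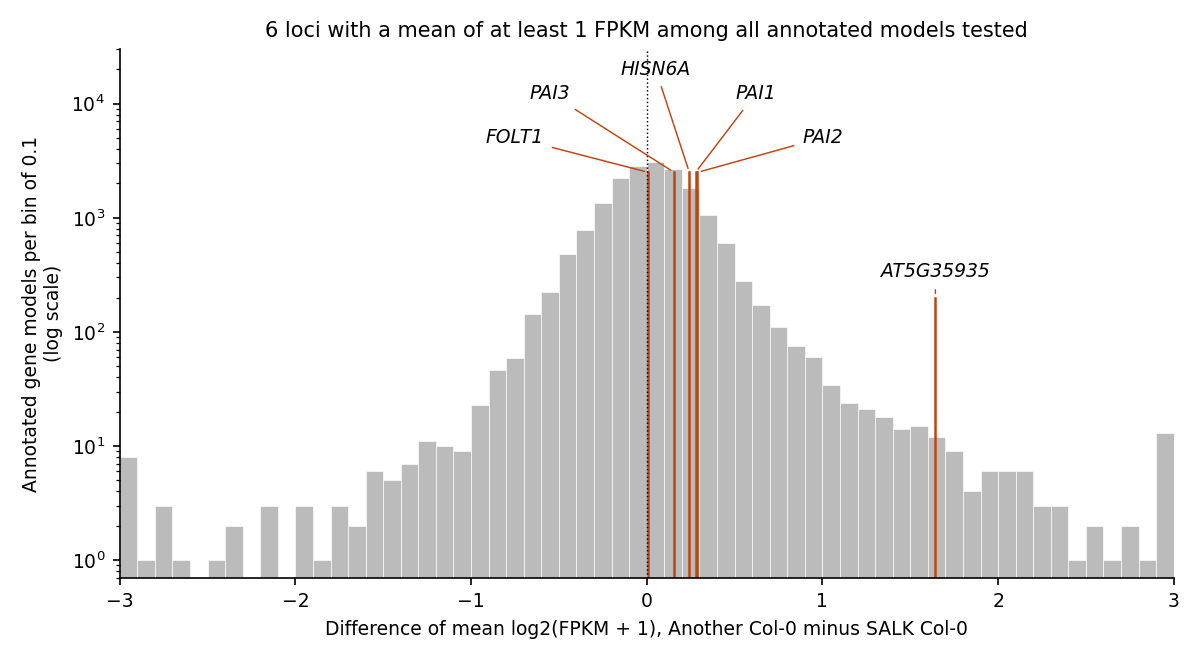
Distribution of the difference in mean log2(FPKM + 1), Another Col-0 minus SALK Col-0, over the 18432 annotated models averaging 1 FPKM or more (grey bars, log scale; the 20 models beyond a difference of 3 are drawn in the end bins), with the 6 loci at that level as orange lines. FOLT1, PAI3, HISN6A, PAI1 and PAI2 lie within the body of the distribution, between 0.01 and 0.29, and AT5G35935 lies in its upper tail at 1.64.

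The PAI genes encode the enzyme of the third step of tryptophan synthesis, the isomerisation of phosphoribosylanthranilate. All 3 were transcribed in both lines and each was modestly higher in Another Col-0, by 1.13 to 1.28 times. PAI1 (chr1:2409970-2412695, minus strand, TAIR10) had 8.09 and 8.04 FPKM in Another Col-0 and 6.71 and 6.25 FPKM in SALK Col-0. The 2 lines did not overlap for PAI1, and the Another Col-0 libraries were nearly equal. The means were 8.07 ± 0.0376 and 6.48 ± 0.327 FPKM (SD, n = 2 each), a ratio of 1.24 and a difference in log2(FPKM + 1) of 0.28 (SE 0.0644). The SE here and below is the moderated one of the limma fit, which draws on the spread of all models tested.

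PAI2 (chr5:1666471-1668352, minus strand), the least abundant of the 3, had 4.55 and 5.66 FPKM in Another Col-0 and 3.98 and 3.97 FPKM in SALK Col-0. Its lines did not overlap, and most of its spread was between the Another Col-0 libraries. The difference in log2(FPKM + 1) was 0.29 (SE 0.126) and the ratio of means 1.28. Its last 61 nt overlap FAD8 (AT5G05580), a plastid fatty acid desaturase gene on the other strand, which had 8.64 and 9.44 FPKM in Another Col-0 and 9.45 and 10.7 FPKM in SALK Col-0. With strand unmarked, reads from that overlap cannot be told apart.

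PAI3 (chr1:10297848-10300005, minus strand) had 7.33 and 8.10 FPKM in Another Col-0 and 6.41 and 7.23 FPKM in SALK Col-0. The lower Another Col-0 library was only just above the higher SALK Col-0 library. The ratio of means was 1.13 and the difference in log2(FPKM + 1) 0.16 (SE 0.0967). Of all annotated models tested, 27.1% had a larger absolute difference than PAI1, 25.6% than PAI2 and 51.8% than PAI3.

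The proportions of the copies in the 4 libraries were as follows. PAI1 held 40.5% and 36.9% of the summed PAI level in Another Col-0 and 39.2% and 35.8% in SALK Col-0. PAI2 held 22.8% and 26.0% in Another Col-0 and 23.3% and 22.8% in SALK Col-0. PAI3 held 36.7% and 37.2% in Another Col-0 and 37.5% and 41.4% in SALK Col-0. The lines thus overlapped in the share of PAI1 and of PAI2, and both Another Col-0 shares of PAI3 were below both SALK Col-0 shares, by a small margin.

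Within each library PAI1 was 1.42 to 1.78 times as abundant as PAI2, with a mean ratio of 1.61 ± 0.154 (SD, n = 4), and PAI3 was 1.43 to 1.82 times as abundant as PAI2. The ratio of PAI1 to PAI3 lay on both sides of 1, at 1.10 and 0.992 in Another Col-0 and 1.05 and 0.864 in SALK Col-0. Because PAI1 and PAI2 share most of their coding windows, the division of their reads depended on the authors' counting. The summed level of the 3 genes was 20.9 ± 1.29 FPKM in Another Col-0 and 17.3 ± 0.246 FPKM in SALK Col-0 (SD, n = 2 each), 1.21 times as high in Another Col-0.

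AT1G07770, the ribosomal protein gene whose sequence recurs ahead of the PAI1 coding region, had 461 and 461 FPKM in Another Col-0 and 365 and 349 FPKM in SALK Col-0. That is a ratio of 1.29, close to that of PAI1, and a level far above that of PAI1 in every library. Its part in the PAI1 values was not tested.

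Of the 11 other genes of tryptophan synthesis that were measured, none passed the adjusted p in limma, in either direction. 9 had a positive difference and 2 a negative one. Both Another Col-0 values were above both SALK Col-0 values for 7 and below for 1, where 29.3% of all tested annotated models were above and 23.2% below. The median difference was 0.24 in log2(FPKM + 1), against 0.02 over all 20634 models tested, and lay between 0.17 and 0.32 when each library was left out. TSA1, the alpha subunit of tryptophan synthase, had 39.2 and 38.2 FPKM in Another Col-0 and 27.9 and 26.6 FPKM in SALK Col-0. Its difference of 0.49 was the largest of the list (SE 0.0563; limma, adjusted p = 0.199).

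ASB1, a beta subunit of anthranilate synthase at the entry of the pathway, had 20.4 and 22.8 FPKM in Another Col-0 and 14.7 and 16.0 FPKM in SALK Col-0 (difference 0.47; limma, adjusted p = 0.221). TRP1, the transferase one step before PAI, had 22.8 and 25.7 FPKM in Another Col-0 and 17.9 and 19.6 FPKM in SALK Col-0 (difference 0.36; limma, adjusted p = 0.269). TSBtype2, a divergent beta subunit of tryptophan synthase, had the lowest difference, -0.10, with 8.78 and 9.75 FPKM in Another Col-0 and 9.81 and 10.2 FPKM in SALK Col-0 (limma, adjusted p = 0.62). The PAI differences of 0.16 to 0.29 thus lie inside the range of the rest of the pathway.

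**Figure D3:**
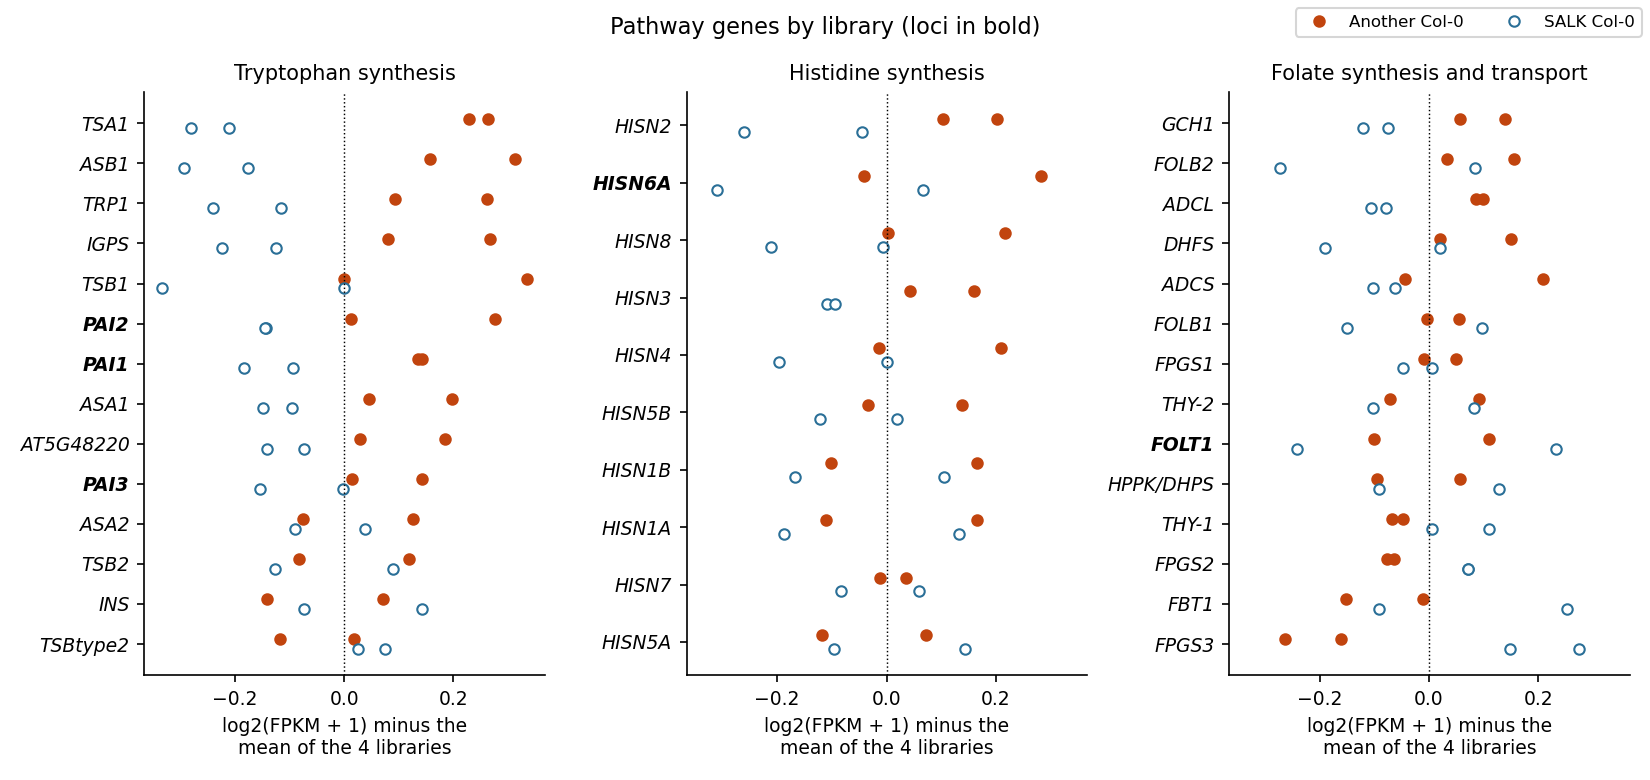
Level of each tested gene of the 3 pathways in each library, as log2(FPKM + 1) minus the mean of the 4 libraries, with Another Col-0 as filled orange points above SALK Col-0 as open blue points, ordered by difference, and the loci described here in bold. In tryptophan synthesis 7 of the 11 genes other than PAI have both Another Col-0 values to the right of both SALK Col-0 values, as has each PAI gene. The lines overlap for 6 of 9 histidine genes other than HISN6A and for 6 of 13 folate genes other than FOLT1. They also overlap for HISN6A and FOLT1. Over all tested annotated models 29.3% have both Another Col-0 values above and 23.2% below, and the difference between pathways was not tested.

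HISN6A and HISN6B encode histidinol-phosphate aminotransferase, which acts late in histidine synthesis. HISN6A carried nearly all of the measured transcript in every library, and HISN6B was at or close to 0. HISN6A (chr5:3247847-3250489, minus strand) had 8.02 and 6.21 FPKM in Another Col-0 and 6.77 and 4.98 FPKM in SALK Col-0. The lines overlapped, and the spread within each line was about as wide as the distance between lines. The means were 7.11 ± 1.28 and 5.87 ± 1.26 FPKM (SD, n = 2 each), with a difference in log2(FPKM + 1) of 0.24 (SE 0.21).

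HISN6B (chr1:27066948-27069166, plus strand) had 0.0761 and 0.0164 FPKM in Another Col-0 and was listed at 0 and 0.0172 FPKM in SALK Col-0. The deposited upper limits reached 0.279 and 0.0933 FPKM in Another Col-0 and 0 and 0.0906 FPKM in SALK Col-0. HISN6B thus held 0.94% and 0.263% of the summed HISN6 level in Another Col-0 and 0% and 0.344% in SALK Col-0. Within the coding sequence the reads of the copies can be separated at few positions. Over whole exons, 607 of 1664 windows of HISN6A (36.5%) and 516 of 784 windows of HISN6B (65.8%) occur elsewhere in the genome. The HISN6B shares of the summed level thus also rest in part on how the authors' counting divided shared reads.

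The HISN6A model lies in the same merged bundle as that of AT5G10336 (chr5:3250599-3252644), an annotated gene on the same strand, and the 2 models are 109 nt apart. In RefSeq HISN6A reaches further, to chr5:3250964, and so into the span of the AT5G10336 model. AT5G10336 was listed at 27.1 and 0.166 FPKM in Another Col-0 and at 327 and 35.9 FPKM in SALK Col-0, a spread within each line far wider than that of HISN6A. An unannotated model antisense to AT5G10336 overlaps HISN6A by 318 nt and had 0.847 and 1.70 FPKM in Another Col-0 and 0.97 and 1.31 FPKM in SALK Col-0. The part of these models in the HISN6A values was not tested.

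Among the 9 other histidine synthesis genes none passed the adjusted p in limma. 8 had a positive and 1 a negative difference, and both Another Col-0 values were above both SALK Col-0 values for 3 and below for 0, a share above that is near the 29.3% of all tested annotated models. The median difference was 0.10. HISN2, which acts on phosphoribosyl-ATP early in the pathway, had 33.0 and 30.7 FPKM in Another Col-0 and 27.6 and 23.6 FPKM in SALK Col-0 (difference 0.30; limma, adjusted p = 0.325).

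HISN3, the isomerase, had 16.9 and 18.4 FPKM in Another Col-0 and 15.1 and 15.2 FPKM in SALK Col-0 (difference 0.20; limma, adjusted p = 0.311). HISN8, histidinol dehydrogenase at the end of the pathway, had a difference of 0.22 (limma, adjusted p = 0.514). HISN5A, imidazole glycerol-phosphate dehydratase just ahead of HISN6, had the lowest difference, -0.05, with 12.2 and 10.5 FPKM in Another Col-0 and 12.8 and 10.7 FPKM in SALK Col-0 (limma, adjusted p = 0.977). The difference of HISN6A, 0.24, lies within this range.

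FOLT1 (chr5:26513524-26515715, minus strand) encodes a folate carrier of the chloroplast envelope. It had 9.02 and 10.6 FPKM in Another Col-0 and 8.09 and 11.6 FPKM in SALK Col-0. Both Another Col-0 values lay between the SALK Col-0 values, and the means were 9.82 ± 1.12 and 9.86 ± 2.50 FPKM (SD, n = 2 each). The difference in log2(FPKM + 1) was 0.01 (SE 0.217), and it lay between -0.23 and 0.25 when each library was left out. Of all annotated models tested, 96.4% had a larger absolute difference.

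Of the 14 other genes of folate synthesis and transport, 13 were tested and none passed the adjusted p in limma. 8 had a positive and 5 a negative difference, with a median of 0.04. FPGS3, a folylpolyglutamate synthetase that adds glutamate to folates, had 18.3 and 17.0 FPKM in Another Col-0 and 25.1 and 23.0 FPKM in SALK Col-0 (difference -0.42; limma, adjusted p = 0.22). FPGS2, its mitochondrial relative, had a difference of -0.14 (limma, adjusted p = 0.311).

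GCH1, GTP cyclohydrolase at the start of pterin synthesis, had 25.7 and 27.2 FPKM in Another Col-0 and 22.6 and 23.3 FPKM in SALK Col-0 (difference 0.20; limma, adjusted p = 0.295). ADCL, which completes para-aminobenzoate, had 65.0 and 64.4 FPKM in Another Col-0 and 57.4 and 56.2 FPKM in SALK Col-0 (difference 0.18; limma, adjusted p = 0.264). FOLT1 stands near the middle of this list.

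FWA, SDC and SUP were all under 1 FPKM in every library. FWA (chr4:13038360-13042443, plus strand), a homeodomain factor whose ectopic activity delays flowering, had 0.0224 and 0.0184 FPKM in Another Col-0 and 0.0242 and 0.0379 FPKM in SALK Col-0. Both Another Col-0 values were below both SALK Col-0 values, but all 4 lower limits were 0 and the upper limits ran from 0.0585 to 0.117 FPKM. Of the annotated models with a mean above 0 and under 1 FPKM, 31.8% had both Another Col-0 values above and 31.9% below both SALK Col-0 values. After quantile normalization the lines overlapped for FWA.

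FWA is normally active in the endosperm. The 6 markers of seed and endosperm had summed levels of 11.7 and 12.2 FPKM in Another Col-0 and 16.6 and 14.6 FPKM in SALK Col-0, mostly from CRA1 and from a model that pools AGL62 with its neighbour, which differed in opposite directions. CRA1, a storage globulin gene, had 2.28 and 2.04 FPKM in Another Col-0 and 7.29 and 6.86 FPKM in SALK Col-0. The pooled AGL62 model had 8.79 and 9.46 FPKM in Another Col-0 and 8.45 and 6.50 FPKM in SALK Col-0. Among the low markers the oleosin genes OLEO1 and OLEO2 were lower in Another Col-0 without overlap (ratios 0.447 and 0.421), and the storage protein gene CRC was higher (ratio 1.52). SESA1, a seed albumin gene, was at 0.0446 and 0.106 FPKM in Another Col-0 and listed at 0 in both SALK Col-0 libraries. The part of such transcripts in the FWA values was not tested.

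SDC (chr2:7682178-7684158, plus strand), an F-box gene, was the highest of FWA, SDC and SUP, at 0.80 and 0.493 FPKM in Another Col-0 and 0.469 and 0.355 FPKM in SALK Col-0. The lines did not overlap, though the lower Another Col-0 value was close to the higher SALK Col-0 value, all 4 deposited lower limits were 0, and the lines overlapped after quantile normalization. The means were 0.647 ± 0.217 and 0.412 ± 0.0808 FPKM (SD, n = 2 each). Its 3′ end overlaps by 47 nt AT2G17695 on the other strand, which had 23.9 and 25.2 FPKM in Another Col-0 and 21.9 and 20.8 FPKM in SALK Col-0. With strand unmarked, reads of that overlap cannot be told apart, and their part in the SDC values was not tested.

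SUP (chr3:8242302-8243372, plus strand), a zinc finger factor that limits stamen number, was listed at 0 with both limits at 0 in all 4 libraries, as were 8489 of 32105 annotated models. The 8 flower markers were all above 0, with summed levels of 47.6 and 40.5 FPKM in Another Col-0 and 22.4 and 16.9 FPKM in SALK Col-0. SEP3 and PI, factors of floral organ identity, made up most of it. SEP3 had 35.7 and 30.1 FPKM in Another Col-0 and 17.2 and 12.2 FPKM in SALK Col-0. PI had 9.62 and 8.42 FPKM in Another Col-0 and 3.21 and 2.86 FPKM in SALK Col-0 (difference 1.31; limma, adjusted p = 0.199). None of the 3 flower markers tested passed the adjusted p, and the third, the carpel factor SHP1, had a difference of -0.04 with overlapping lines. Of the 5 flower markers under 1 FPKM, AP3, AG and AP1 were higher in Another Col-0 without overlap, SEP1 was lower without overlap (ratio 0.52) and SEP2 overlapped. With SUP listed at 0 throughout, its level could not be set against that of these markers.

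Of 13 further genes known to be controlled by DNA methylation, 5 were tested and 8 had a mean under 1 FPKM. None of the 5 passed the adjusted p in limma over all models, and QQS, a gene found only in Arabidopsis that affects starch content, passed among annotated models alone. QQS had 152 and 136 FPKM in Another Col-0 and 7.33 and 6.07 FPKM in SALK Col-0, a ratio of 21.5 (difference 4.24; limma, adjusted p = 0.199 over all models). ROS1, a DNA demethylase whose own transcription follows the methylation of its promoter, had 9.83 and 10.9 FPKM in Another Col-0 and 13.6 and 14.0 FPKM in SALK Col-0 (difference -0.38; limma, adjusted p = 0.22).

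IBM1, a histone demethylase gene whose full-length transcript depends on methylation in an intron, had 7.05 and 8.26 FPKM in Another Col-0 and 9.31 and 10.01 FPKM in SALK Col-0 (difference -0.30; limma, adjusted p = 0.318). BNS, a gene with a known silent epiallele, had 14.0 and 23.2 FPKM in Another Col-0 and 8.64 and 15.3 FPKM in SALK Col-0, and its lines overlapped (difference 0.60; limma, adjusted p = 0.581). Of the 8 low genes, both Another Col-0 values were above both SALK Col-0 values for 4 and below for 2, where 31.8% of all annotated models at such levels were above and 31.9% below, and no value exceeded 1.02 FPKM. The median of the 5 tested genes was -0.02, and its sign changed with the library left out, between -0.40 without Another Col-0 replicate 2 and 0.63 without SALK Col-0 replicate 2.

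AT5G35935 was the locus with the widest separation of lines. It had 18.7 and 19.1 FPKM in Another Col-0 and 5.34 and 5.41 FPKM in SALK Col-0. The libraries of each line were nearly equal, and the lines lay far apart. The means were 18.9 ± 0.275 and 5.37 ± 0.0505 FPKM (SD, n = 2 each), a ratio of 3.52 and a difference in log2(FPKM + 1) of 1.64 (SE 0.0503). The deposited limits were 10.4 to 27.1 and 10.1 to 28.1 FPKM in Another Col-0 and 1.86 to 8.82 and 1.35 to 9.48 FPKM in SALK Col-0. Of annotated models tested, 0.472% (87 of 18432) had a larger absolute difference.

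RefSeq annotates AT5G35935 as a pseudogene in chr5:14083388-14089891, with a single exon of 6504 nt and no intact coding sequence. The deposited model is longer, chr5:14075934-14089996 on the minus strand, a span of 14063 nt. Its level may therefore include transcription outside the annotated pseudogene, but which part of the span carries the reads cannot be seen in a table of 1 value per model. On the other strand the span holds AT5G35932, a second pseudogene, at 0.0844 and 0.136 FPKM in Another Col-0 and 0.0967 and 0.138 FPKM in SALK Col-0, and an unannotated model of 384 nt at or near 0.

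The genes on either side were not higher in Another Col-0. AT5G35930, 1150 nt away on the same strand, had 5.80 and 6.95 FPKM in Another Col-0 and 6.51 and 7.27 FPKM in SALK Col-0, with overlapping lines. AT5G35940, 638 nt away on the other strand, had 2.33 and 2.56 FPKM in Another Col-0 and 3.56 and 3.70 FPKM in SALK Col-0, both below the SALK Col-0 values.

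The 5 annotated models whose 4 values of log2(FPKM + 1), centred on their mean, lay nearest to those of AT5G35935 were AT2G04040, AT5G44575, AT3G50800, AT3G44260 and AT5G39580, none of them on the same stretch of chromosome. AT2G04040, which encodes the efflux transporter DTX1, was the nearest, at a Euclidean distance of 0.0176 over 4 libraries, with 4.55 and 4.70 FPKM in Another Col-0 and 0.796 and 0.836 FPKM in SALK Col-0. Both SALK Col-0 values of AT2G04040 are under the added 1 FPKM, so its change is understated on this scale and its distance depends on that setting. AT5G44575 (distance 0.116) had 19.9 and 21.2 FPKM in Another Col-0 and 5.83 and 5.34 FPKM in SALK Col-0, levels close to those of the pseudogene. With 2 libraries in each line, any model with tight replicates and a like difference is near by this measure.

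AT3G50800 (distance 0.119) and AT3G44260 (distance 0.131, the deadenylase gene CAF1a) had differences of 1.73 and 1.69. AT5G39580 (distance 0.155), the most abundant of the 5, had 138 and 155 FPKM in Another Col-0 and 43.5 and 49.7 FPKM in SALK Col-0.

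**Figure D4:**
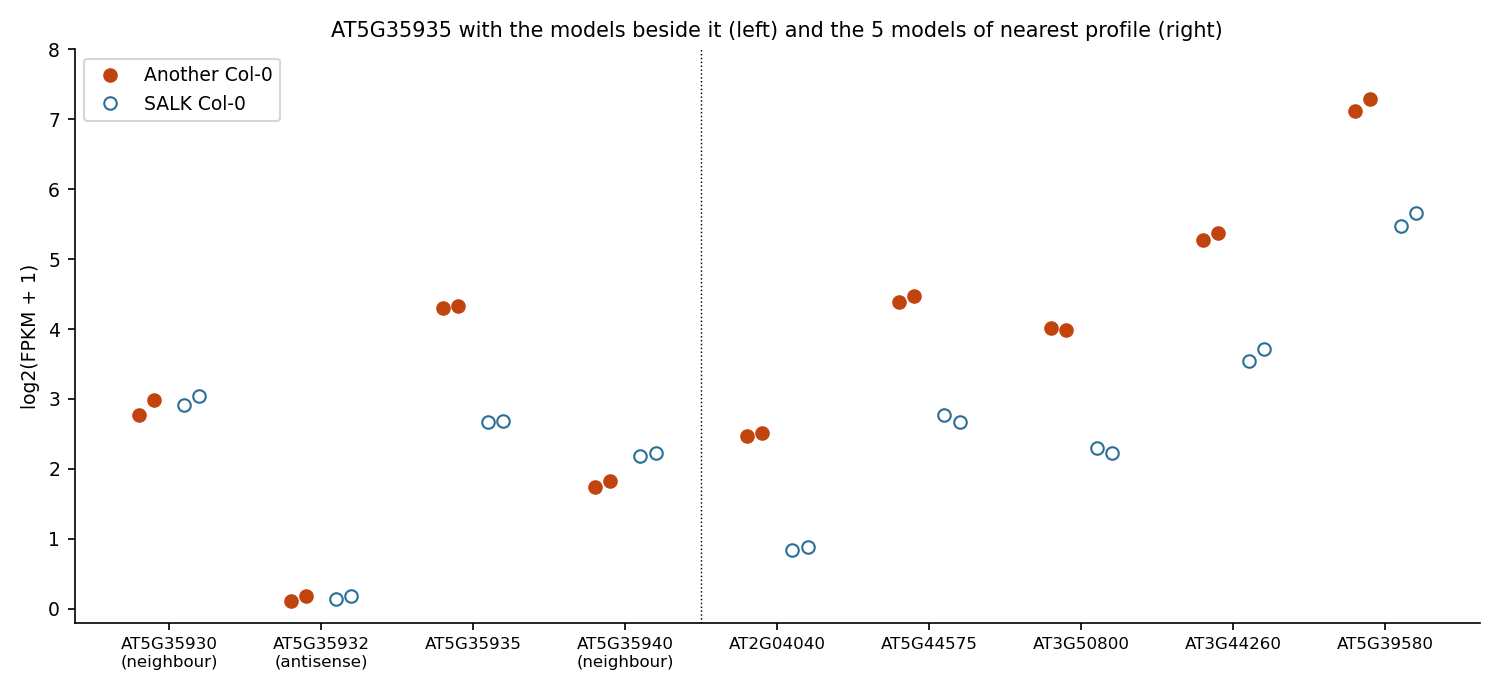
Level in log2(FPKM + 1) of AT5G35935, of the models beside and antisense to it (left of the dotted line) and of the 5 annotated models of nearest profile (right), with the libraries of Another Col-0 as filled orange points and those of SALK Col-0 as open blue points. AT5G35935 is 1.64 higher in Another Col-0, while AT5G35930 and AT5G35932 overlap between lines and AT5G35940 is lower.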

How the data were processed

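The deposited table gives FPKM values for 36251 merged gene models with the authors' lower and upper limits, per the file headers. Per the submitters' processing notes, the tools were TopHat, Cufflinks and Cuffdiff and the build TAIR10. Their versions and settings are not given in the sources used here. Read totals are not in the table, so the depth is unknown and no counting interval is given. Cufflinks can divide reads between near-identical copies and estimates values rather than counting whole reads.

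Models with a failed or too deep estimate (19) were left out, and 301 organelle rows with displaced fields were read by the field that holds the gene identifier. Values were taken as log2(FPKM + 1), a scale on which changes of low genes are understated. Models averaging 1 FPKM or more were fitted with limma 3.58.1 (R 4.3.3), line as the only term, with a mean-variance trend, two-sided, Benjamini-Hochberg adjustment over all models and a threshold of 0.05. The fit had 2 residual degrees of freedom, and an exact permutation of 2 libraries against 2 cannot give p below 0.333. The 10 loci and the gene lists (78 entries, all measured) were chosen with earlier results of these data known. The identifier of HISN7 on the histidine list was corrected after its values were seen. Of each pathway list and of the methylation-controlled genes the text names the largest and smallest difference and up to 2 more by p. Marker lists are given by their summed level, and the single markers named were chosen after their values were seen. The nearest annotated model on each side of each locus was also taken, leaving out models whose span overlaps that of the locus. Sequences and their coordinates come from RefSeq's annotation of TAIR10.1, aligned with MAFFT 7.526, and model coordinates from the deposited table, counted from 1. Alternatives were a pseudocount of 0.1, no filter, quantile normalization, median scaling, no trend, a replicate block, annotated models only, and each library left out.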

Additional observations from a re-analysis of the deposited data

How the results depend on the processing

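No model was called in the comparison of lines with a pseudocount of 0.1, without the filter, after quantile normalization or median scaling, or without the trend (0 models in each). Leaving out any library also gave 0 in total and in each of the 4 lists, but those fits assume that the lone library varies like the other line and reached adjusted p of 0.618 to 0.806 at their smallest, so they say nothing about stability. With annotated models only, 11 were called, 10 higher and 1 lower, and 1 of them, QQS, was on the list of methylation-controlled genes. The replicate numbers are shared between lines but no label links them, and deviations of same-numbered libraries correlated across annotated models (r = 0.789, across genes, which are not independent). With only 2 pairs that does not show a pairing. With the replicate number as a block, 4624 of 20634 models were called (2951 higher and 1673 lower). Among them were 5 of 11 tryptophan, 2 of 9 histidine, 1 of 13 folate and 4 of 5 methylation-controlled genes tested. With annotated models only and the block, 8231 of 18432 were called. Among them were 7 of 11 tryptophan, 4 of 9 histidine, 5 of 13 folate and 4 of 5 methylation-controlled genes tested.

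The lines did not overlap for 6 of the 10 loci, and for 6 to 8 with a library left out, 5 after median scaling and 4 after quantile normalization. Over all annotated models at or above 1 FPKM, 29.3% were above and 23.2% below without overlap, and 31.8% and 31.9% at lower levels. A line with a single value overlaps less readily, so the counts with a library left out cannot be set against these shares. Mean ratios moved to between 1.56 and 1.68 for PAI1 over PAI2, between 1.55 and 1.68 for PAI3 over PAI2 and between 0.968 and 1.05 for PAI1 over PAI3 with a library left out. The difference of AT5G35935 was 1.80 with a pseudocount of 0.1 and 1.62 after median scaling. With a pseudocount of 0.1 those of SDC, HISN6B and FWA were 0.52, 0.40 and -0.12. FOLT1 changed sign to -0.01 after median scaling. With 2 libraries in each line and no read totals, small differences of low loci cannot be resolved.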

Other observations

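Of the 20 annotated models nearest on either side of the 10 loci, at gaps of 109 to 7206 nt, 5 were listed at 0 in all libraries and 15 had values. Both Another Col-0 values were below both SALK Col-0 values for 10 of the 15, above for 1 and overlapping for 4. Over all annotated models at or above 1 FPKM, 23.2% were below and 29.3% above, and 31.9% and 31.8% at lower levels. The 15 had a median difference of -0.19 in log2(FPKM + 1). The single higher one of the 15 was AT1G07770 beside PAI1. Annotated models whose span overlaps that of a locus were left out of this count. Of those, AT2G17695 at SDC was higher in Another Col-0 and FAD8 at PAI2 was lower, both without overlap of values. The values of AT5G35932 at AT5G35935 overlapped between lines. SLK1 (AT4G25520), a transcriptional adaptor gene beside FWA, had 12.2 and 14.3 FPKM in Another Col-0 and 16.2 and 18.5 FPKM in SALK Col-0. AT5G66390, a peroxidase gene beside FOLT1, had 16.2 and 13.9 FPKM in Another Col-0 and 21.9 and 18.6 FPKM in SALK Col-0. ML5 (AT1G29400), an RNA-binding protein gene beside PAI3, had 62.8 and 66.7 FPKM in Another Col-0 and 76.2 and 78.3 FPKM in SALK Col-0. These models were taken for their position, and the count was made after their values were seen.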
